A study of Mus musculus with 12 samples.

Results

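The response to Inf, a cocktail of the inflammatory cytokines TNF-α, IL-17A, and IL-1β, was measured in fibroblasts that also received IL-4 and IL-13. The comparison was of 3 IL-4/13 + Inf libraries with 3 IL-4/13 libraries, chosen by their labels, and these are 6 of the 12 bulk RNA-seq libraries of the series. The cells were 3T3-L1, a mouse embryonic fibroblast line that can be turned into adipocytes with inducing agents, and all libraries came from this single line. Both groups received IL-4 and IL-13, each at 50 ng/mL, for 24 hours. To the IL-4/13 + Inf group were added 20 ng/mL of TNF-α, 50 ng/mL of IL-17A, and 0.5 ng/mL of IL-1β, so the groups differ by Inf and share IL-4/13. The other 6 libraries, 3 of untreated control cells and 3 of cells given Inf without IL-4/13, entered the same fit and gave the response to Inf without IL-4/13, with which the first response is set side by side. These 2 responses share no library.

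TNF-α and IL-1β signal through receptors that activate NF-κB and AP-1, transcription factors that switch on chemokine, cytokine, and protease genes. IL-17A signals through an adaptor, Act1, and is known for stabilizing the mRNA of inflammatory genes and for acting together with TNF-α in fibroblasts. IL-4 and IL-13 signal through receptors that share the IL-4Rα chain and activate STAT6. They are the type 2 cytokines of atopic skin, where fibroblasts meet both kinds of signal at once.

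Total counts ranged from 13446005 to 18522188 in the IL-4/13 libraries and from 14953341 to 20477464 in the IL-4/13 + Inf libraries. Levels are given as CPM (each library's counts scaled to 1000000 tested-gene counts after TMM), which are not corrected for transcript length and so are compared between libraries and not between genes. Of 12 fibroblast markers, 11 passed the filter on low counts, and their summed level was 14350 to 15140 CPM with IL-4/13 and 11780 to 12150 CPM with IL-4/13 + Inf. The macrophage markers *C1qa*, *C1qb*, and *Tyrobp* and the T cell markers *Cd3e*, *Cd3d*, and *Cd8a* had no count in any library. Other markers of these types were present. Of 6 T cell markers, 2 passed the filter, and the summed list was 1.81 to 2.73 CPM with IL-4/13 and 2.09 to 3.42 CPM with IL-4/13 + Inf. The summed macrophage list of 12 genes was 24.1 to 26.5 CPM with IL-4/13 and 46.2 to 52.7 CPM with IL-4/13 + Inf. Of its genes, 5 passed the filter and 6 had 3 or fewer counts in every library. In bulk RNA, fewer cells of a type and less RNA per cell cannot be told apart. The labels do not say whether the 3 libraries of a group came from separate cultures, so P values measure the spread between these libraries, which may be technical.

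Adding Inf to IL-4/13 raised 1971 of 14810 tested genes, or 13.3%, and lowered 1627, or 11%, so 24.3% of tested genes changed. A gene was called changed at an adjusted p below 0.05 in edgeR's quasi-likelihood test and a log2 fold change beyond 0.25. The rises were larger than the falls. The median log2 fold change was 0.64 among called rises and −0.45 among called falls, with a median of −0.0021 over all tested genes. A log2 fold change beyond 1 was reached by 630 rises and 306 falls, and one beyond 3 by 130 rises and 13 falls. Library by library, the groups did not overlap for 1939 of the called rises and 1583 of the called falls, where 23.5% of all tested genes were higher and 23.9% lower without overlap. On the first principal component of the 6 libraries, which held 73.5% of the variance, the IL-4/13 libraries scored −39.8 to −38.5 and the IL-4/13 + Inf libraries 38.0 to 40.2.

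**Figure D1:**
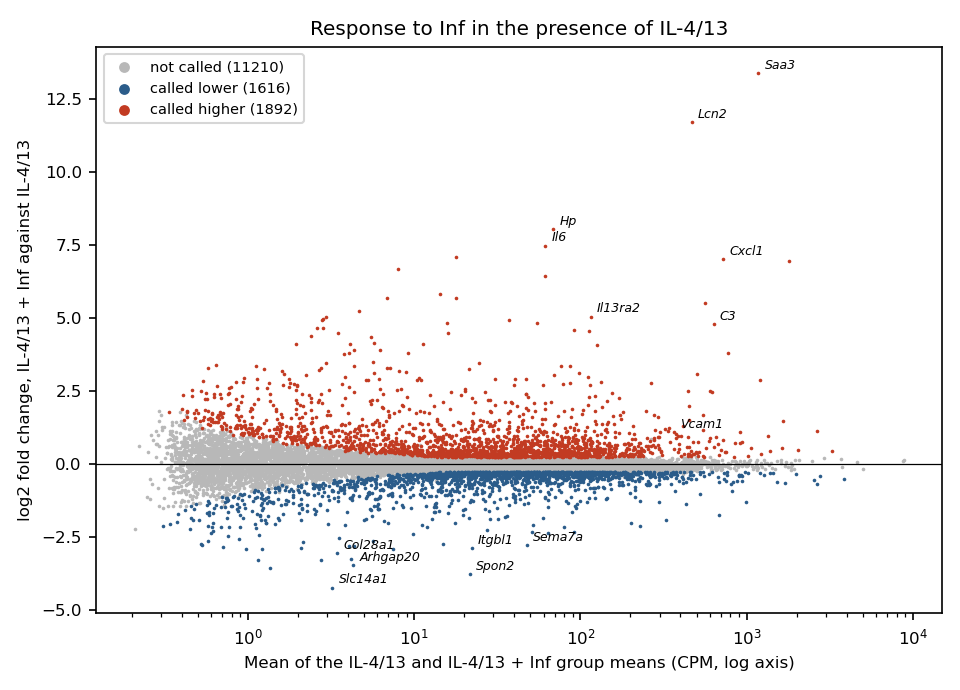
Each point is 1 tested gene, with the mean of both group means on a log axis in CPM and the fitted log2 fold change on the vertical axis. The 92 genes that had at most 3 counts in each library of 1 group are not drawn. The 1892 called rises (red) reach much further from 0 than the 1616 called falls (blue), with Saa3 and Lcn2 at the top.

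The 10 largest rises among genes of at least 5 CPM in a group and with no overlap were *Saa3*, *Nos2*, *Lcn2*, *Il1a*, *Csf3*, *Mmp12*, *Ch25h*, *Cxcl3*, *Hp*, and *Ccl3*. They encode secreted proteins or enzymes of innate defence, and 7 of them had 3 or fewer counts in every IL-4/13 library. *Saa3*, an acute phase apolipoprotein made outside the liver, was at 0.107, 0.13, and 0.441 CPM in the IL-4/13 libraries and at 2214, 2218, and 2644 CPM in the IL-4/13 + Inf libraries. *Lcn2*, which binds bacterial siderophores, was at 0.375, 0.0648, and 0.368 CPM against 925, 914, and 972 CPM. Both genes were thus close to the limit of detection in all 3 IL-4/13 libraries and high in all 3 with Inf, with log2 fold changes of 13.41 ± 0.20 and 11.71 ± 0.11 (SE) and edgeR adjusted p of 1.9e-12 and 3.23e-34. *Hp*, encoding haptoglobin, which binds free haemoglobin, was at 0.429, 0.259, and 0.882 CPM against 124, 139, and 147 CPM, a log2 fold change of 8.06 ± 0.16 (adjusted p = 1.07e-19, edgeR).

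Genes that were below the limit of detection with IL-4/13 have a lower bound of the fold, computed against 3 counts per library and covering counting error only. *Nos2*, the inducible nitric oxide synthase, was at 0, 0.0648, and 0 CPM with IL-4/13 and at 232, 242, and 249 CPM with IL-4/13 + Inf, which is at least 1257-fold higher. *Il1a*, a cytokine that signals through the IL-1 receptor, rose to 45.7, 39.6, and 42.9 CPM, at least 222.8-fold higher. *Ch25h*, which makes 25-hydroxycholesterol, rose to 30.7, 27.3, and 25.9 CPM, at least 145.8-fold higher. Each of these genes was at 3 or fewer counts in all 3 IL-4/13 libraries and therefore did not overlap between groups. The bound was at least 111.9-fold for *Mmp12*, a macrophage-type elastase, at least 85.82-fold for *Csf3*, the granulocyte growth factor G-CSF, at least 78.09-fold for *Ccl3*, and at least 52.52-fold for *Cxcl3*. Outside the 10 largest rises, *Sprr2d*, an epidermal envelope gene, was at least 41.28-fold higher. In all, 79 of the called rises, or 4.01%, had 3 or fewer counts in every IL-4/13 library.

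The stretches below lie upstream of the start of some of the genes with the largest changes. RefSeq gave 8 windows for 7 of the 10 largest rises and 5 windows for 5 of the 10 largest falls. Shown are 6 that hold motif letters and 2 that hold none, chosen after the search, to let both kinds be seen. The sequences are from RefSeq on build GRCm38.p6, of 120 bases each, written 5′ to 3′ along the gene. Capitals mark matches to the motif letters GGGA and CC with 4 bases between them (NF-κB), TGANTCA (AP-1), or TTGCNNAA (C/EBP) on either strand. *Saa3* (chr7:46715677-46715796, minus strand) and *Lcn2* (chr2:32387846-32387965, minus strand) hold C/EBP letters, *Il1a* (chr2:129309973-129310092, minus strand) holds AP-1 letters, *Ch25h* (chr19:34475151-34475270, minus strand) holds C/EBP and then NF-κB letters, and *Cxcl3* (chr5:90785981-90786100, plus strand) holds overlapping NF-κB letters of both strands. *Sema7a* (chr9:57939867-57939986, plus strand) was the only one of the 5 falls with any of these letters, those of NF-κB. The rise *Ccl3* (chr11:83649379-83649498, minus strand) and the fall *Arhgap20* (chr9:51765231-51765350, plus strand) hold none, as do the falls *Lrrc17*, *Col28a1*, and *Itgbl1*, which are not printed. Both windows of *Mmp12* hold letters and are not printed either.
Saa3: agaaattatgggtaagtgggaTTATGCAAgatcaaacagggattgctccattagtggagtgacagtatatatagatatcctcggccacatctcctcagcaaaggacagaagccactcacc
Lcn2: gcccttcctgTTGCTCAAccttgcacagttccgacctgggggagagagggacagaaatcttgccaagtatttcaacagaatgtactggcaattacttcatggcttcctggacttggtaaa
Il1a: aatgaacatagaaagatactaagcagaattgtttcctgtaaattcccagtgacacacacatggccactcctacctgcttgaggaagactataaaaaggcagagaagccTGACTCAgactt
Ch25h: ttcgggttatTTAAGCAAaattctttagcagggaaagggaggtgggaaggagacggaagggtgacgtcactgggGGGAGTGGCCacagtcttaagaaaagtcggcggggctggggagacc
Cxcl3: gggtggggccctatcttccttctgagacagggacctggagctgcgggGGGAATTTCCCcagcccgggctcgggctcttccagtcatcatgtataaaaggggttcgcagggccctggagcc
Ccl3: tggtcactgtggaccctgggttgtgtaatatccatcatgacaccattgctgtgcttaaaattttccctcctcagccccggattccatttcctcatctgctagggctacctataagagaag
Arhgap20: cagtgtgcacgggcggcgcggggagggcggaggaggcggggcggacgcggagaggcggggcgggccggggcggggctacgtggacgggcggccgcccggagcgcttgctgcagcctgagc
Sema7a: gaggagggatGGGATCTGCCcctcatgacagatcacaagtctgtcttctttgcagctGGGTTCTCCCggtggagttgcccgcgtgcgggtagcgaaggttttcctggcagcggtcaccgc

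In the 250 bases before the start, on either strand and with overlaps counted once per window, the NF-κB letters were in 23.6% of the windows of called rises, 25.8% of the windows of called falls, 22.4% of the windows of tested genes, and 17.6% of all windows. The C/EBP letters were in 10.7% of the windows of rises, 5.36% of the windows of falls, 7.46% of those of tested genes, and 9.56% of all. The AP-1 letters were in 7.11%, 5.67%, 4.76%, and 6.75%, respectively. A window was found for 1430 of the called rises and 1202 of the called falls. GC content was 58.4% in the windows of rises and 60.7% in those of falls, and its part in these shares was not tested. A match is a description of letters and not a binding site.

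The 10 largest falls were *H19*, *Slc14a1*, *Spon2*, *Arhgap20*, *Lrrc17*, *Col28a1*, *Itgbl1*, *Sparcl1*, *Aoc3*, and *Sema7a*. *H19*, an imprinted non-coding RNA of growing tissue, was at 9.22, 11.5, and 8.45 CPM with IL-4/13 and at 0, 0.0562, and 0 CPM with IL-4/13 + Inf. It went below the limit of detection in all 3 libraries with Inf, at least 56.17-fold lower. *Spon2*, a secreted matrix protein, was at 39.9, 43.7, and 37.3 CPM against 2.68, 3.49, and 2.77 CPM, a log2 fold change of −3.76 ± 0.12 (adjusted p = 6.97e-22, edgeR). *Sema7a*, a membrane-anchored semaphorin, was at 85.0, 91.2, and 73.9 CPM against 12.3, 13.1, and 11.4 CPM, a log2 fold change of −2.76 ± 0.09. *Slc14a1*, a urea transporter, fell from 5.47, 5.90, and 7.06 CPM to 0.496, 0.337, and 0.0675 CPM. Every library of the IL-4/13 group lay above every library of the IL-4/13 + Inf group for these genes. *Itgbl1*, *Sparcl1*, and *Lrrc17* encode secreted proteins, *Col28a1* a collagen chain, and *Aoc3* an amine oxidase of adipocytes and smooth muscle, and their log2 fold changes were between −3.23 and −2.79.

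**Figure D2:**
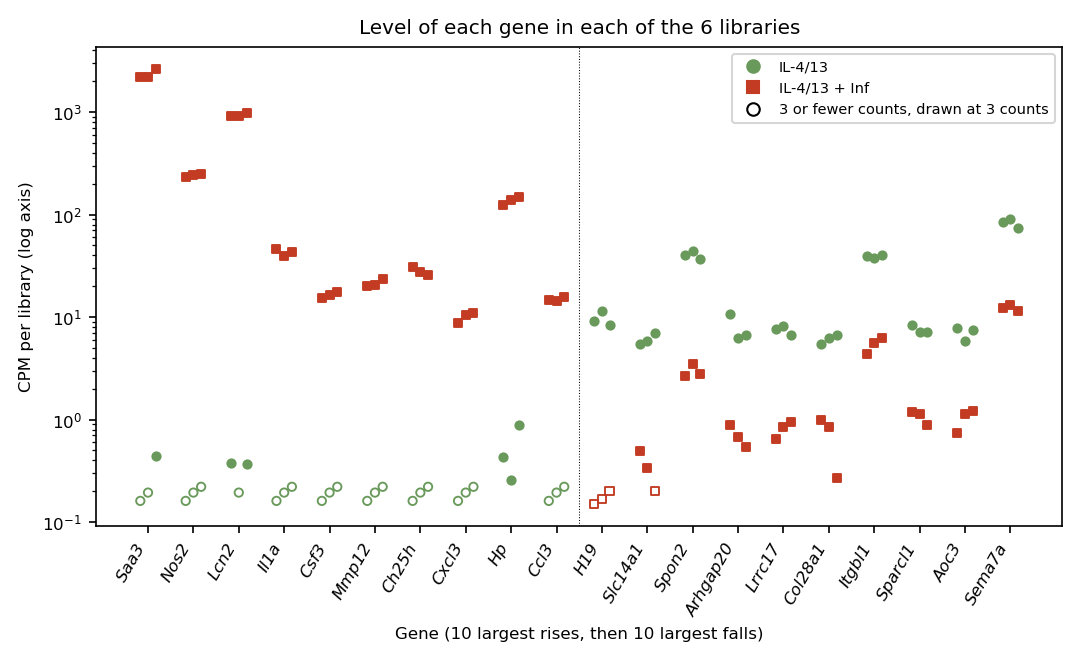
Level of the 10 largest rises (left) and the 10 largest falls (right) in each of the 3 IL-4/13 libraries (green circles) and the 3 IL-4/13 + Inf libraries (red squares), in CPM on a log axis, with open symbols for 3 or fewer counts drawn at 3 counts. The groups do not overlap for any of the 20 genes, as the selection required.

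Chemokine genes rose together. Of 11 tested CXC chemokine genes, 10 rose and 1 fell, with a median log2 fold change of 4.11, or 3.65 with genes below detection at their bound. *Cxcl1*, a neutrophil attractant, was at 10.6, 11.9, and 10.3 CPM with IL-4/13 and at 1444, 1397, and 1477 CPM with IL-4/13 + Inf. *Cxcl5*, which uses the same receptor, was at 26.1, 27.5, and 32.6 CPM against 3582, 3457, and 3621 CPM. The log2 fold changes were 7.04 ± 0.06 (adjusted p = 7.39e-36, edgeR) and 6.96 ± 0.12, far beyond the spread between libraries. *Cxcl11* and *Cxcl10*, chemokines for lymphocytes, rose less than *Cxcl1* and *Cxcl5*, with log2 fold changes of 4.36 ± 0.27 and 2.39 ± 0.24. *Cxcl16*, a membrane-bound chemokine, rose by 4.11 ± 0.17 on the log2 scale. The single fall was *Cxcl12*, which keeps stem cells and lymphocytes in place. Like other members named below because a count is 5 or fewer, it was chosen after its values were seen. It was at 334, 331, and 299 CPM with IL-4/13 and at 195, 201, and 195 CPM with IL-4/13 + Inf, with no overlap and a log2 fold change of −0.71 ± 0.05 (adjusted p = 7.17e-14, edgeR).

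Of 11 tested CC chemokine genes, 8 rose and none fell, with a median log2 fold change of 2.88. *Ccl2*, a monocyte attractant, was at 281, 293, and 289 CPM against 2100, 2081, and 2204 CPM, and *Ccl5* was at 21.01, 18.9, and 20.8 CPM against 180, 172, and 175 CPM. Their log2 fold changes were 2.89 ± 0.05 and 3.12 ± 0.07. *Ccl17*, a type 2 T cell attractant, was at 1.23, 1.36, and 1.03 CPM against 16.4, 17.1, and 17.9 CPM, a log2 fold change of 3.81 ± 0.19. The eosinophil attractants *Ccl8* and *Ccl11* rose by 2.88 ± 0.15 and 1.76 ± 0.18 on the log2 scale. All of these genes were higher in every library with Inf. *Ccl9*, *Ccl25*, and *Ccl28* did not pass the test.

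Among 19 tested cytokine genes, 11, or 57.9%, rose and 4, or 21.1%, fell, against 13.3% and 11% of all tested genes. *Il6* was at 0.589, 0.972, and 0.441 CPM with IL-4/13 and at 123, 126, and 117 CPM with IL-4/13 + Inf, a log2 fold change of 7.49 ± 0.13 (adjusted p = 1.55e-28, edgeR). *Csf2*, encoding the granulocyte and macrophage growth factor GM-CSF, was at 0.429, 0.194, and 0.0735 CPM against 36.6, 34.4, and 35.4 CPM, a log2 fold change of 7.10 ± 0.20. Neither gene overlapped between groups. *Lif*, a relative of *Il6*, rose by 3.37 ± 0.07 and *Il1rn*, the natural antagonist of IL-1, by 2.89 ± 0.21. The epithelial-type alarmins *Il33* and *Tslp* rose by 2.03 ± 0.30 and 1.22 ± 0.26, and *Csf1*, the macrophage growth factor, by 0.72 ± 0.04, all on the log2 scale. Among the falls were *Il11*, *Clcf1*, and *Kitl*, of which *Il11*, a fibrosis-associated relative of *Il6*, changed by −0.55 ± 0.14 and *Kitl*, the stem cell factor, by −0.42 ± 0.12. The genes of the added cytokines *Tnf* and *Il1b* did not pass the filter on low counts.

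The acute phase and antimicrobial list rose nearly as a whole, with 17 of 18 tested members higher and none lower. Its median log2 fold change was 3.93, or 2.93 with genes below detection at their bound. Besides *Saa3*, *Lcn2*, and *Hp*, *Slpi*, an inhibitor of neutrophil elastase, was at 7.50, 7.06, and 7.28 CPM against 176, 170, and 182 CPM. *Cp*, the copper-carrying oxidase ceruloplasmin, was at 188, 178, and 201 CPM against 1040, 1059, and 1071 CPM. The log2 fold changes were 4.59 ± 0.07 and 2.48 ± 0.04, with no overlap between groups. *Ptx3*, a soluble pattern recognition protein, rose by 1.90 ± 0.07. *Hpx* was the only tested member that did not pass the test. The serine protease inhibitor genes of the *Serpina3* family also rose and share sequence, with 6.9% to 16% of 50-base stretches of *Serpina3n*, *Serpina3f*, *Serpina3i*, and *Serpina3g* found in other genes, so reads could be split among them.

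Complement genes rose in 9 of 15 tested cases, or 60%, and fell in 2, or 13.3%, against 13.3% and 11% of all tested genes. *C3*, the central component, was at 40.8, 43.1, and 47.4 CPM with IL-4/13 and at 1198, 1222, and 1248 CPM with IL-4/13 + Inf, a log2 fold change of 4.81 ± 0.09 (adjusted p = 1.49e-14, edgeR). The first-component proteases *C1s1*, *C1s2*, and *C1ra* rose by 2.72 ± 0.08, 2.56 ± 0.18, and 2.11 ± 0.07 on the log2 scale. Their values are uncertain, as 24.3%, 26.9%, and 50.8% of their 50-base stretches also occur in other genes. The falls were *Cd55*, which dismantles complement convertases on the cell surface, at −1.14 ± 0.19, and *Masp1*.

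**Figure D3:**
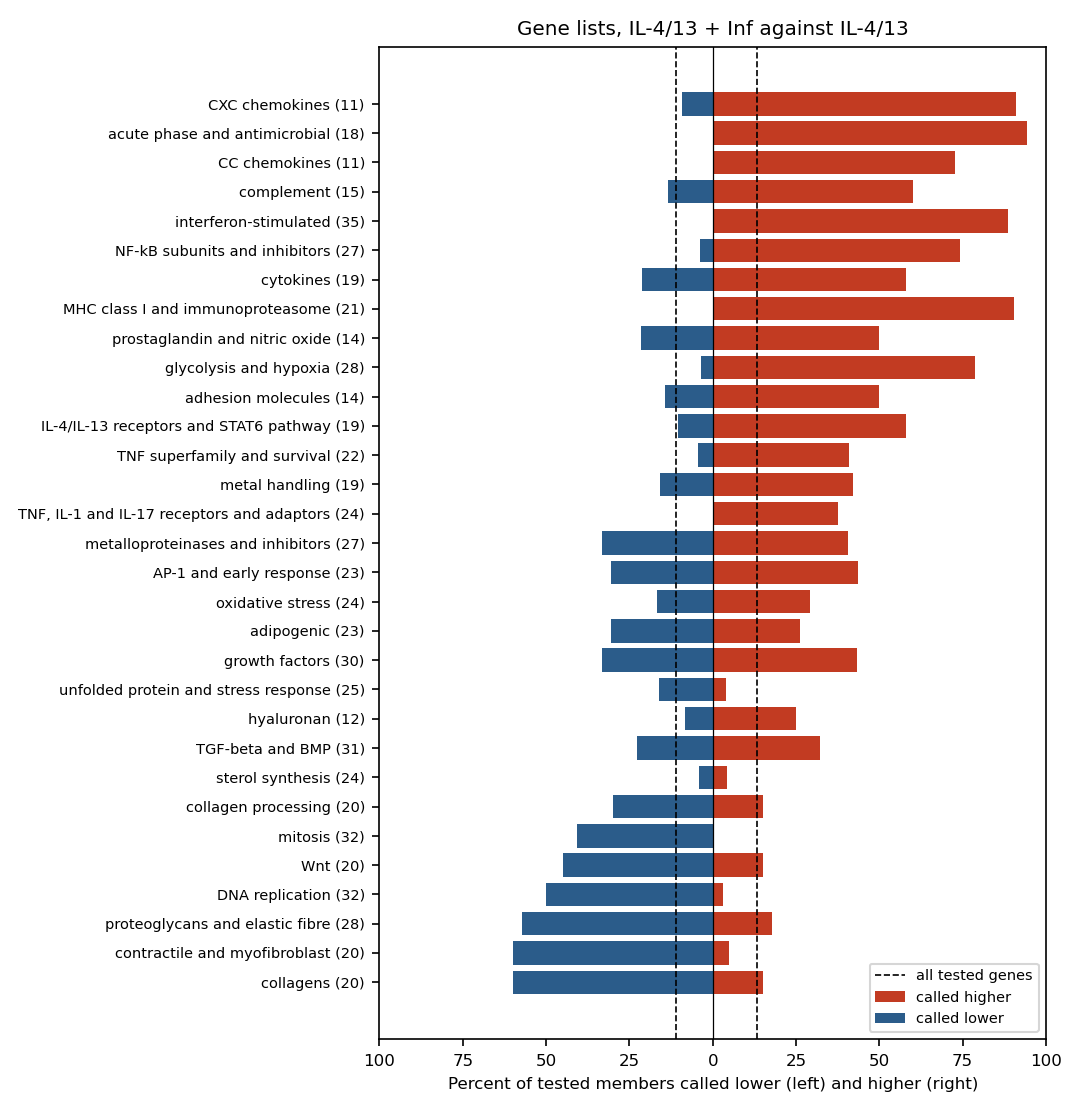
Percent of the tested members of each gene list that were called higher (red, right) or lower (blue, left) with IL-4/13 + Inf against IL-4/13, ordered by median log2 fold change, with the number tested in brackets and dashed lines at the 13.3% and 11% of all tested genes. Chemokines, acute phase genes, interferon-stimulated genes, and antigen presentation stand far to the right, and collagens, contractile genes, and proteoglycans far to the left. DNA replication, Wnt, and mitosis genes also reach well left of the line for all tested genes.

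Of 27 tested genes of NF-κB subunits and their regulators, 20 rose and 1 fell, with a median log2 fold change of 0.75. The largest rises included feedback inhibitors. *Zc3h12a*, an RNase that degrades cytokine mRNA, was at 14.8, 14.9, and 11.98 CPM against 246, 237, and 232 CPM, and *Nfkbia*, encoding IκBα, was at 49.0, 49.0, and 45.4 CPM against 260, 262, and 259 CPM. Their log2 fold changes were 4.09 ± 0.07 and 2.44 ± 0.06. *Tnip3*, a binding partner of A20, rose by 4.51 ± 0.15, *Nfkbiz*, a nuclear cofactor of IL-17A responses, by 2.73 ± 0.08, and *Tnfaip3*, encoding A20 itself, by 2.15 ± 0.08. The subunits rose less, by 0.93 ± 0.04 for *Nfkb1*, 0.75 ± 0.08 for *Relb*, 0.54 ± 0.05 for *Nfkb2*, and 0.38 ± 0.05 for *Rela*. *Map3k14*, the kinase NIK of the alternative pathway, was the single fall, at 53.8, 55.6, and 61.9 CPM against 21.8, 24.2, and 24.4 CPM (log2 fold change −1.28 ± 0.08, adjusted p = 1.54e-14, edgeR).

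Most receptor and adaptor genes of the added cytokines did not pass the test, but the share that rose was above that of all tested genes. Of 24 tested genes, 9, or 37.5%, rose and none fell, against 13.3% and 11% of all tested genes. The median log2 fold change was 0.13. *Tnfrsf1b*, encoding the second TNF receptor, was at 53.0, 51.8, and 51.3 CPM against 135, 134, and 137 CPM, a log2 fold change of 1.38 ± 0.05. *Tnfrsf1a*, encoding the first, did not pass the test, at 0.10 ± 0.05 (adjusted p = 0.119, edgeR). *Il1r1* and *Il1rap*, which form the IL-1 receptor, rose by 0.42 ± 0.05 and 0.73 ± 0.05. The IL-17A receptor chains *Il17ra* and *Il17rc* did not pass the test, with log2 fold changes of −0.07 ± 0.12 and −0.01 ± 0.06. *Il17rd*, a related receptor, and *Traf3ip2*, encoding Act1, rose by 0.90 ± 0.12 and 0.80 ± 0.10.

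The receptors and pathway of IL-4 and IL-13, cytokines present in both groups, rose in 11 of 19 tested genes and fell in 2. The shares are 57.9% and 10.5%, against 13.3% and 11% of all tested genes. The median log2 fold change was 0.32. *Il13ra2*, the decoy receptor that binds IL-13, was at 5.89, 6.80, and 7.64 CPM with IL-4/13 and at 218, 221, and 232 CPM with IL-4/13 + Inf. The lowest library with Inf was far above the highest without it, and the log2 fold change was 5.06 ± 0.08 (adjusted p = 2.52e-29, edgeR). The signalling chains rose less, by 0.39 ± 0.06 for *Il4ra* and 0.84 ± 0.05 for *Il13ra1*. *Jak2*, a receptor kinase, rose by 2.03 ± 0.06 from 43.3, 42.7, and 45.0 CPM to 176, 180, and 178 CPM. The feedback inhibitors *Socs3* and *Cish* rose by 2.16 ± 0.06 and 1.47 ± 0.12, and *Socs1* by 0.38 ± 0.08. *Stat6* was at 91.9, 96.9, and 88.7 CPM against 107, 105, and 102 CPM and stayed under the fold threshold at 0.18 ± 0.05. *Irs1* and *Irs2*, adaptors that IL-4 uses besides STAT6, were the 2 falls, at −1.07 ± 0.07 and −0.63 ± 0.08.

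Enzymes of lipid mediators and nitric oxide rose in 7 of 14 tested genes and fell in 3. The shares are 50% and 21.4%, against 13.3% and 11% of all tested genes. *Ptgs2*, the inducible cyclooxygenase COX-2, was at 177, 181, and 181 CPM against 698, 702, and 748 CPM, and *Ptges*, which makes prostaglandin E2 from its product, at 109, 104, and 116 CPM against 400, 377, and 393 CPM. Their log2 fold changes were 1.99 ± 0.05 and 1.83 ± 0.05. The constitutive cyclooxygenase *Ptgs1* and the prostaglandin receptors *Ptger4* and *Ptgfr* were the falls, at −0.40 ± 0.04, −0.77 ± 0.13, and −1.04 ± 0.09. Of 14 tested leukocyte adhesion genes, 7, or 50%, rose and 2, *Jam2* and *Ncam1*, or 14.3%, fell. *Vcam1* was at 239, 237, and 221 CPM against 513, 496, and 497 CPM (log2 fold change 1.11 ± 0.04), and *Cd47*, a signal against phagocytosis, rose by 1.21 ± 0.04. *Selp*, encoding P-selectin, was below detection with IL-4/13 and at least 27.1-fold higher with Inf. *Icam1* had at most 3 counts in every library and was not tested.

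Metalloproteinases and their inhibitors split, with 11 of 27 tested genes higher and 9 lower. These shares are 40.7% and 33.3%, against 13.3% and 11% of all tested genes. *Mmp3*, stromelysin, was at 22.4, 22.8, and 26.2 CPM with IL-4/13 and at 1084, 1025, and 1183 CPM with IL-4/13 + Inf, and *Mmp13*, a collagenase, was at 1.18, 1.43, and 1.54 CPM against 119, 114, and 130 CPM. The log2 fold changes were 5.53 ± 0.08 and 6.46 ± 0.11, with no overlap. *Mmp10* rose by 4.85 ± 0.16 and *Mmp9*, a gelatinase, by 2.72 ± 0.07, whereas *Mmp2*, the constitutive gelatinase, did not pass the test (0.04 ± 0.05, adjusted p = 0.595, edgeR). *Timp1* was the only inhibitor called higher, by 0.96 ± 0.04, and other inhibitors fell. Among these, *Timp3*, which is held in the matrix, was at 54.3, 43.9, and 52.3 CPM against 13.4, 13.0, and 14.98 CPM, a log2 fold change of −1.87 ± 0.09.

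Structural matrix genes fell more often than the 11% of all genes. Of 20 tested collagen genes, 12 fell and 3 rose, with a median log2 fold change of −0.43, and their summed level was 16300 ± 580 CPM with IL-4/13 and 11480 ± 134 CPM with IL-4/13 + Inf (SD, n = 3 each). Among chains of at least 5 CPM in a group, *Col6a3* and *Col6a2* of type VI had the largest falls. *Col6a3* was at 356, 288, and 328 CPM against 84.2, 83.7, and 70.3 CPM, and *Col6a2* at 1006, 1033, and 1114 CPM against 322, 322, and 314 CPM. Their log2 fold changes were −2.03 ± 0.18 and −1.72 ± 0.05, with every library of one group apart from every library of the other. The fibrillar type I chains *Col1a1* and *Col1a2* fell by less, at −0.52 ± 0.09 and −0.50 ± 0.05, and *Col3a1* did not pass the test at −0.03 ± 0.05. The rises were *Col5a3*, *Col8a1*, and *Col18a1*, of which *Col18a1*, a basement membrane chain, rose by 0.61 ± 0.05. Among 20 tested genes of collagen processing, 6, or 30%, fell and 3, *P4ha2*, *Plod2*, and *Bmp1*, rose. In each of these collagen lists the rises are 15%, near the 13.3% of all tested genes. *Loxl3*, a cross-linking enzyme, fell at −1.14 ± 0.05 and *P4ha2*, a prolyl hydroxylase, rose at 1.10 ± 0.05.

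Proteoglycan and elastic fibre genes fell in 16 of 28 tested cases and rose in 5, *Dcn*, *Lum*, *Prelp*, *Ltbp2*, and *Thbs1*. The falls are 57.1% and the rises 17.9%, against 11% and 13.3% of all tested genes. *Postn*, periostin, was at 375, 353, and 384 CPM against 85.0, 87.1, and 85.3 CPM, a log2 fold change of −2.11 ± 0.05 (adjusted p = 1.04e-25, edgeR). The small leucine-rich proteoglycans moved both ways. *Aspn* and *Ogn* fell, at −2.34 ± 0.12 and −2.14 ± 0.07 on the log2 scale, and *Lum* rose by 2.55 ± 0.15. *Dcn*, decorin, was at 106, 98.7, and 99.7 CPM with IL-4/13 and at 1455, 1415, and 1450 CPM with IL-4/13 + Inf, a log2 fold change of 3.83 ± 0.05. *Thbs1*, which activates TGF-β, rose by 1.47 ± 0.07. With *Dcn* and *Thbs1* among its members, the summed level of the list was 12050 ± 409 CPM and 11810 ± 124 CPM (SD, n = 3 each), although more members fell than rose. Hyaluronan genes mostly did not pass the test, with 3 of 12, *Cemip*, *Cemip2*, and *Tnfaip6*, higher and 1, *Vcan*, lower at −0.51 ± 0.11. These shares are 25% and 8.33%, against 13.3% and 11% of all tested genes.

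Contractile and myofibroblast genes fell in 12 of 20 tested cases, with *Tagln2* as the only rise and a median log2 fold change of −0.40. *Myl9*, a myosin light chain, was at 120, 124, and 126 CPM against 70.3, 66.3, and 70.9 CPM, and *Tpm1*, a tropomyosin, at 996, 1019, and 989 CPM against 624, 623, and 616 CPM. The falls were small and tight, with log2 fold changes of −0.84 ± 0.06 and −0.69 ± 0.04 and no overlap between groups. *Acta2*, the smooth muscle actin of myofibroblasts, fell at −0.27 ± 0.04, just past the threshold.

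Genes of antigen presentation and interferon response rose, with no interferon among the added cytokines. Of 21 tested genes of MHC class I and the immunoproteasome, 19 rose and none fell, with a median log2 fold change of 0.68. *H2-K1* was at 420, 406, and 436 CPM against 787, 783, and 762 CPM, a log2 fold change of 0.89 ± 0.04, and *B2m*, the shared light chain, rose by 0.49 ± 0.06. Among members of at least 5 CPM in a group, *H2-T22* rose most, by 2.94 ± 0.08, with 35.8% of its 50-base stretches shared with other genes. Of 35 interferon-stimulated genes, all of them tested, 31 rose and none fell, with a median log2 fold change of 1.16. *Ifit1*, an RNA-binding antiviral protein, was at 65.7, 48.1, and 63.8 CPM against 286, 288, and 278 CPM (log2 fold change 2.26 ± 0.24, adjusted p = 9.18e-05, edgeR), and *Gbp3*, a guanylate-binding protein, at 25.4, 20.9, and 23.8 CPM against 99.3, 115, and 85.3 CPM. In both genes the IL-4/13 library of replicate 2 was the lowest of its group. The transcription factor *Irf7* rose by 1.53 ± 0.18, and *Irf1* did not pass the test at 0.04 ± 0.06.

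Early response genes of the AP-1 and related families split, with 10 of 23 tested genes higher and 7 lower. The shares are 43.5% and 30.4%, against 13.3% and 11% of all tested genes. *Ier3* was at 34.7, 40.7, and 46.4 CPM against 198, 193, and 224 CPM, a log2 fold change of 2.34 ± 0.11. *Junb* rose by 0.59 ± 0.05 and *Jun* fell at −0.33 ± 0.05. *Egr3* and *Klf10*, growth factor and TGF-β response genes, fell at −1.51 ± 0.14 and −1.37 ± 0.10. In the TNF superfamily and survival list, 9 of 22 tested genes, or 40.9%, rose and 1, or 4.55%, fell. *Fas*, a death receptor, was at 15.2, 14.4, and 15.2 CPM against 131, 120, and 122 CPM (log2 fold change 3.06 ± 0.07), and the single fall was *Bcl2*, a survival gene, at −0.74 ± 0.09.

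Growth factor genes rose in 13 of 30 tested cases, or 43.3%, and fell in 10, or 33.3%, against 13.3% and 11% of all tested genes. The insulin-like growth factor axis held large changes each way. *Igf1* was at 42.2, 44.9, and 49.1 CPM with IL-4/13 and at 10.2, 9.5, and 8.77 CPM with IL-4/13 + Inf, and *Igfbp3*, its main carrier, at 3.21, 4.08, and 3.90 CPM against 106, 106, and 104 CPM. The ligand thus fell at −2.25 ± 0.09 and the binding protein rose at 4.83 ± 0.09 on the log2 scale, with no overlap in either. *Igfbp5*, another binding protein, fell at −1.91 ± 0.29. The nerve factor *Gdnf* rose by 2.02 ± 0.08 and *Hgf*, an epithelial growth factor, by 1.38 ± 0.06, and *Vegfa* did not pass the test at −0.08 ± 0.05.

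Of 31 tested TGF-β and BMP genes, 10, or 32.3%, rose and 7, or 22.6%, fell, against 13.3% and 11% of all tested genes. *Inhbb*, an activin subunit, was at 134, 136, and 134 CPM against 43.1, 44.5, and 41.8 CPM, a log2 fold change of −1.64 ± 0.06, and its sister *Inhba* changed by −1.11 ± 0.07. *Fst*, a secreted antagonist of activins, rose by 1.54 ± 0.07. Of 20 tested Wnt genes, 9, or 45%, fell and 3, *Wnt6*, *Rspo2*, and *Rspo3*, rose. The rises are 15%, near the 13.3% of all tested genes. *Fzd4*, a receptor, fell at −1.73 ± 0.10, *Tcf7l1*, a transcription factor, at −0.78 ± 0.07, and *Rspo3*, which enhances Wnt signalling, rose by 1.34 ± 0.16.

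The adipogenic list, relevant as 3T3-L1 cells are preadipocytes, rose in 6 of 23 tested genes and fell in 7. The shares are 26.1% and 30.4%, against 13.3% and 11% of all tested genes. *Cebpd* and *Cebpb*, C/EBP factors that are also acute phase regulators, rose by 2.80 ± 0.11 and 1.36 ± 0.11, the former from 30.1, 33.1, and 37.8 CPM to 231, 244, and 224 CPM. *Pparg*, the master regulator of adipocytes, was at 22.6, 20.7, and 21.2 CPM against 10.2, 10.6, and 11.5 CPM, a log2 fold change of −1.005 ± 0.10. *Dlk1*, the preadipocyte factor Pref-1, fell at −0.56 ± 0.04. Of 8 adipocyte markers, 6 had 3 or fewer counts in every library.

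Cell cycle genes fell more often than the 11% of all tested genes, by small amounts. Of 32 DNA replication genes, 16, or 50%, fell and 1 rose, with a median log2 fold change of −0.26. Of 32 mitosis genes, 13, or 40.6%, fell and none rose, with a median of −0.20. The other 15 and 19 genes of these lists did not pass the test. *Ccna2*, cyclin A2, was at 277, 266, and 277 CPM against 189, 204, and 204 CPM, a log2 fold change of −0.46 ± 0.05, and *Mki67*, the proliferation marker, at 278, 244, and 265 CPM against 190, 210, and 188 CPM, a change of −0.42 ± 0.11. *Tyms*, thymidylate synthase, was the exception, rising by 0.68 ± 0.06.

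Glycolysis and hypoxia genes rose in 22 of 28 tested cases and fell in 1, *Pfkfb4*, with a median log2 fold change of 0.44. *Hk2*, a hexokinase, was at 58.1, 58.9, and 56.2 CPM against 112, 117, and 102 CPM. The glucose transporter *Slc2a1*, the lactate dehydrogenase *Ldha*, and the hypoxia factor *Hif1a* rose by 0.60 ± 0.04, 0.48 ± 0.03, and 0.60 ± 0.04 on the log2 scale. Reads of some glycolysis genes could be split with near-identical copies, as 16.6% of the 50-base stretches of *Ldha*, 27.2% of those of *Gapdh*, 41.5% of *Pgam1*, 68% of *Pgk1*, and 84.5% of *Eno1* also occur in other genes. In metal handling, 8 of 19 tested genes rose and 3, *Slc39a10*, *Slc40a1*, and *Steap3*, fell. These shares are 42.1% and 15.8%, against 13.3% and 11% of all tested genes. *Steap4*, a metalloreductase, was at 0.589, 0.583, and 0.882 CPM against 34.5, 34.7, and 35.7 CPM, a log2 fold change of 5.69 ± 0.15. The iron importer *Slc11a2* rose by 1.81 ± 0.05, and the iron exporter *Slc40a1*, ferroportin, fell at −1.45 ± 0.13.

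In the oxidative stress list, 7 of 24 tested genes rose and 4, *Gclm*, *Osgin1*, *Gsta4*, and *Nox4*, fell. These shares are 29.2% and 16.7%, against 13.3% and 11% of all tested genes. *Sod2*, the mitochondrial superoxide dismutase, was at 67.1, 68.7, and 67.04 CPM against 472, 453, and 480 CPM, a log2 fold change of 2.79 ± 0.05. The extracellular enzyme *Sod3* rose by 1.32 ± 0.09 and *Gstm1*, a glutathione transferase with 23.1% of its 50-base stretches shared with other genes, by 1.83 ± 0.05. Sterol synthesis and the unfolded protein response had the smallest shares of called members among the lists. Of 24 sterol genes, *Sc5d* rose and *Tm7sf2* fell. Of 25 stress genes, 1, *Sdf2l1*, rose and 4, or 16%, fell, near the 11% of all tested genes. The falls were *Ddit3*, *Trib3*, *Chac1*, and *Asns*, targets of ATF4, with *Chac1* at −0.44 ± 0.07 and *Trib3* at −0.41 ± 0.07. *Atf4* itself and other members such as *Sesn2* and *Nupr1* did not pass the test.

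Set beside the response to Inf without IL-4/13, in which 16.3% of tested genes rose and 15.3% fell, the response with IL-4/13 called fewer genes each way. Of the rises with IL-4/13, 1583 were also rises without it, which is 80.3% of those with and 65.4% of those without. Of the falls, 1244 were shared, 76.5% of those with and 54.9% of those without. A gene called in one response only is not thereby shown to differ. Of 384 rises called only with IL-4/13, the difference itself was called for 35, and of 381 such falls for 25. Across all tested genes, Pearson's r of the log2 fold changes was 0.87, a description over genes that share libraries within each response.

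The direct test of the difference, the response with IL-4/13 minus the response without it, called 225 genes higher, or 1.52%, and 236 lower, or 1.59%. Among the rises with IL-4/13, 133 had a smaller and 58 a larger fold change than without it, and among the falls, 52 were weaker and 43 stronger. A further 175 genes differed without being called in the response with IL-4/13. Of the gene lists, NF-κB regulators had the most called differences by count, 8 of 27, all lower, among them *Nfkbia* (−0.45, adjusted p = 0.000778, edgeR) and *Tnfaip3* (−0.63, adjusted p = 0.0016, edgeR). The acute phase list had 6 lower of 18 and none higher, a larger share. For the NF-κB regulators, a lower difference was not always a lower level. *Tnfaip3* was at 78.57 to 90.65 CPM with Inf and 61.25 to 64.36 CPM with IL-4/13 + Inf. *Nfkb1* was at 459 to 471 CPM and 853 to 863 CPM, and *Tnip3* at 19.77 to 20.85 CPM and 29.46 to 33.33 CPM, respectively. These levels were not tested against each other. The 35 interferon-stimulated genes had 1 difference called, higher, and the 21 genes of MHC class I and the immunoproteasome had none.

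**Figure D4:**
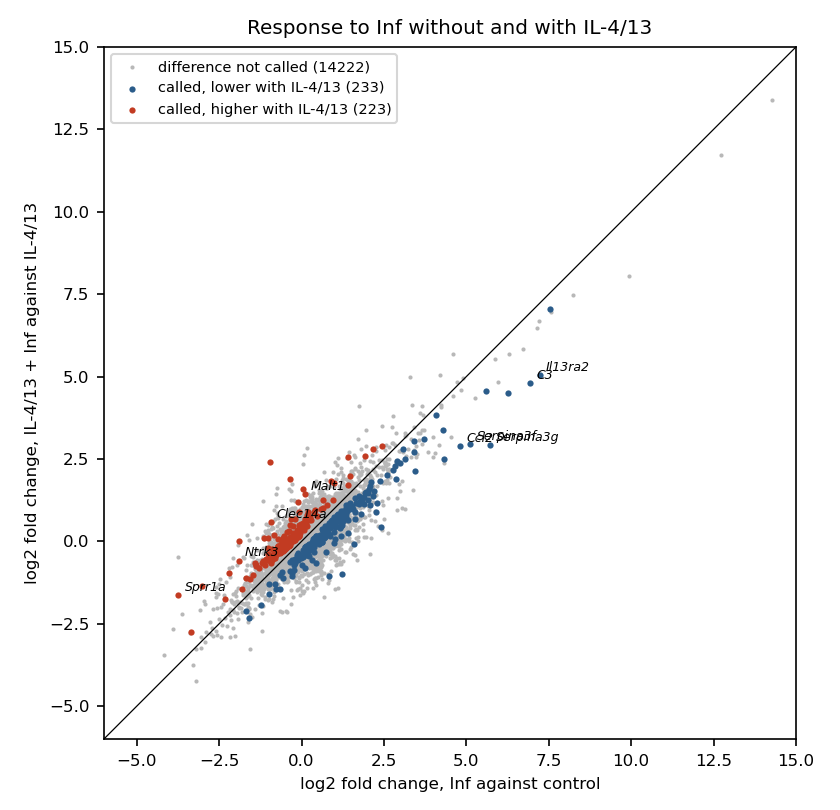
Log2 fold change of Inf against control (horizontal) and of IL-4/13 + Inf against IL-4/13 (vertical) for 14678 genes, leaving out those that had at most 3 counts in each library of the control, IL-4/13, or IL-4/13 + Inf group, with the line of equal response. Genes called for the difference are red where the value with IL-4/13 was higher (223) and blue where it was lower (233), and most lie close to the line.

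The most reduced fold changes were in genes whose IL-4/13 libraries lay above the control libraries, with *Lbp* as the exception. *C3* was at 5.83, 6.57, and 5.88 CPM in control and at 833, 745, and 644 CPM with Inf, a log2 fold change of 6.93 ± 0.11 against 4.81 ± 0.09 with IL-4/13, and the difference was −2.12 ± 0.15 (adjusted p = 2.02e-06, edgeR). Its IL-4/13 libraries, at 40.8 to 47.4 CPM, lay above control, and its IL-4/13 + Inf libraries, at 1198 to 1248 CPM, lay above those with Inf. *Il13ra2* was at 0.343, 0.496, and 0.300 CPM in control and at 59.9, 52.8, and 60.1 CPM with Inf. Its difference was −2.17 ± 0.26 (adjusted p = 2.4e-06, edgeR), with IL-4/13 + Inf again the highest group at 218 to 232 CPM. *Serpina3g* and *Serpina3f* followed the same order, with differences of −2.79 ± 0.31 and −2.17 ± 0.43. *Serpina3g* was at 13.9, 16.6, and 17.8 CPM with Inf and at 51.2, 53.0, and 57.6 CPM with IL-4/13 + Inf. *Ccl2* had a difference of −1.91 ± 0.07 from 73.6, 66.4, and 61.2 CPM in control and 1937, 1741, and 1935 CPM with Inf. A smaller fold with IL-4/13 was thus not a lower level in these genes.

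*Lbp*, the lipopolysaccharide-binding protein, stood lower with IL-4/13. It was at 9.44, 6.62, and 5.82 CPM with Inf and at 0.893, 1.74, and 0.472 CPM with IL-4/13 + Inf, and its difference was called (adjusted p = 0.0407, edgeR), without a size because control was below detection. *Serpina3i* and *Serpina3h* likewise have no size, with 3 or fewer counts in every control library and adjusted p of 0.00141 and 2e-05 for the difference (edgeR), but their levels were higher with IL-4/13 + Inf than with Inf. Other acute phase genes stood lower with IL-4/13, as *Lbp* did. *Saa3* was at 5628, 4829, and 5276 CPM with Inf against 2214, 2218, and 2644 CPM with IL-4/13 + Inf, and *Hp* was at 331, 289, and 280 CPM against 124, 139, and 147 CPM. The groups did not overlap for either gene, and the summed level of the acute phase list was 7971 to 8872 CPM with Inf and 4711 to 5252 CPM with IL-4/13 + Inf. *Saa3* was the largest part of this sum, and the tested *Serpina3* genes stood higher with IL-4/13 + Inf. These levels were not tested against each other. *Cxcl12* had another pattern. It was at 334, 349, and 339 CPM in control and at 332, 358, and 339 CPM with Inf, with a log2 fold change of 0.01 ± 0.04, against the fall of −0.71 ± 0.05 with IL-4/13, and the difference was −0.72 ± 0.06 (adjusted p = 7.41e-09, edgeR). Of the 4 groups, only IL-4/13 + Inf stood apart for this gene. *Fabp4*, a fatty acid carrier of adipocytes, rose by 1.41 ± 0.12 without IL-4/13, with 29.4, 28.7, and 32.2 CPM under Inf against 12.2, 10.7, and 11.04 CPM in control. With IL-4/13 it did not pass the test at 0.27 ± 0.12 (adjusted p = 0.0791, edgeR), and the difference was −1.14 ± 0.16 (adjusted p = 6.26e-05, edgeR). *Fabp4*, like *Cxcl12*, was chosen after its values were seen.

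Some genes rose with Inf when IL-4/13 was present, with a fold change near 0 when it was not. *Malt1*, a protease of NF-κB activation in lymphocytes, was at 14.6, 13.9, and 15.7 CPM with IL-4/13 and at 39.5, 37.8, and 42.7 CPM with IL-4/13 + Inf. In control it was at 13.5, 13.3, and 13.3 CPM and with Inf at 15.5, 15.5, and 11.7 CPM, so a single group of the 4 stood above the rest. The log2 fold changes were 1.44 ± 0.09 with and 0.09 ± 0.10 without IL-4/13, and the difference was 1.34 ± 0.14 (adjusted p = 1.6e-07, edgeR). *Prickle1*, a planar polarity gene, had the same pattern, at 20.04, 19.3, and 23.1 CPM with IL-4/13 + Inf and between 7.90 and 10.7 CPM in the other 9 libraries, with a difference of 1.30 ± 0.16. *Blnk*, a B cell adaptor, also differed, but a fold change near 0 without IL-4/13 is not shown for it. It was below detection in IL-4/13 and at least 38.42-fold higher with Inf, at 7.69, 6.46, and 7.96 CPM. With Inf without IL-4/13 it was at 1.66, 0.974, and 1.21 CPM (adjusted p of the difference = 0.00839, edgeR).

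Other genes kept more of their level. *Sema3a*, an axon repellent, fell from 83.5, 88.9, and 89.1 CPM in control to 17.3, 19.7, and 19.4 CPM with Inf. With IL-4/13 it fell from 104, 99.8, and 100 CPM to 52.7, 55.3, and 47.5 CPM, and the difference was 1.25 ± 0.09 (adjusted p = 1.48e-10, edgeR). *Slc8a1*, a sodium and calcium exchanger, fell at −1.13 ± 0.09 without IL-4/13 and did not pass the test with it at 0.11 ± 0.09 (difference 1.24 ± 0.12). *Ntrk3*, a neurotrophin receptor, and *Sprr1a*, an epidermal envelope gene, fell in both responses and by less with IL-4/13, with differences of 1.32 ± 0.32 and 2.11 ± 0.58. *Ntrk3* overlapped between the groups that received IL-4/13.

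Directions were opposite in 6 genes, 4 higher with and lower without IL-4/13 and 2 the other way. *Clec14a*, an endothelial-type lectin, was at 3.86, 4.02, and 5.51 CPM against 6.74, 6.30, and 6.68 CPM with IL-4/13 present, and at 5.89, 7.13, and 5.52 CPM against 3.12, 3.41, and 3.09 CPM with it absent. The log2 fold changes were 0.57 ± 0.16 and −0.94 ± 0.17, and the difference was 1.51 ± 0.24 (adjusted p = 0.000115, edgeR). *Prmt6*, an arginine methyltransferase, changed by 0.49 ± 0.07 with and −0.34 ± 0.07 without IL-4/13. *Osgin2* and *Gm7993* had smaller changes, and 49.6% of the 50-base stretches of *Gm7993* occur in other genes. *Foxc1*, a mesenchymal transcription factor, and *Thbs2*, a matrix thrombospondin, went the other way. *Thbs2* changed by −0.32 ± 0.06 with and 0.39 ± 0.05 without IL-4/13, and *Foxc1* by −0.55 ± 0.10 and 0.32 ± 0.10.

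**Figure D5:**
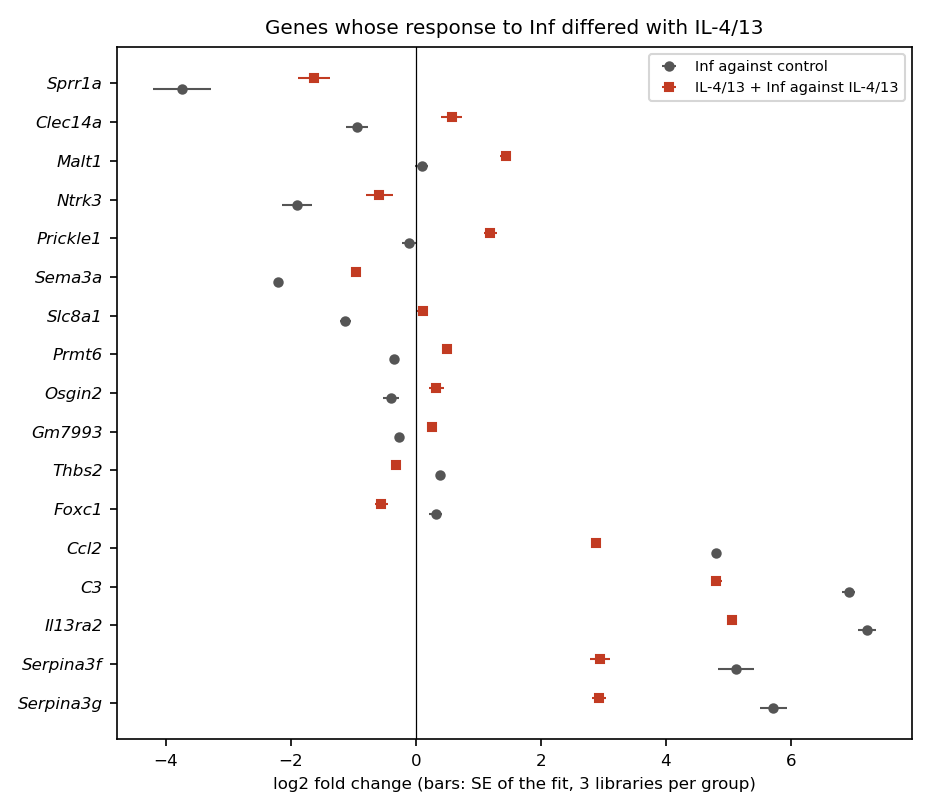
Log2 fold change with its SE of the fit (bars, 3 libraries per group) for the genes with the largest called differences and for those with opposite directions, for Inf against control (grey circles) and IL-4/13 + Inf against IL-4/13 (red squares). In the bottom 5 genes both responses are rises, smaller with IL-4/13, and Malt1 and Prickle1 have a rise with IL-4/13 only.

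Some effector genes had a larger response with IL-4/13. *Ptgs2* had a difference of 0.53 ± 0.07 (adjusted p = 1.53e-05, edgeR), at 418, 367, and 353 CPM with Inf and 698, 702, and 748 CPM with IL-4/13 + Inf. *Gstm1* had a difference of 0.93 ± 0.08, at 124, 116, and 125 CPM with Inf and 187, 180, and 204 CPM with IL-4/13 + Inf. For both genes every IL-4/13 + Inf library was above every Inf library. For the 10 largest rises, no difference was called, with adjusted p between 0.0736 for *Hp* and 0.951 for *Il1a*, which does not show that the responses were equal. Of the 10 largest falls, *Sema7a* had a called difference, at 0.60 ± 0.14 (adjusted p = 0.0126, edgeR).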

How the data were processed

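Bulk RNA-seq of 3T3-L1 cells gave 12 libraries, 3 in each of 4 conditions. The authors prepared stranded poly(A) mRNA libraries and deposited raw, unnormalized counts of reads per gene. The submitters' processing notes name STAR, featureCounts, and build GRCm39, without versions. The annotation and the strand setting are not given in the sources used here. The table holds 56941 gene identifiers, of which 29236 had a count, and 51948 identifiers were found in a table of gene names. Doses and time are as the study's text states them.

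From these counts, edgeR's filter by condition (10 counts at least, 15 in total) left 14810 genes, 133 of them without a symbol. edgeR 4.0.16 (R 4.3.3, limma 3.58.1) with TMM scaling and its robust quasi-likelihood fit over all 12 libraries gave 3 two-sided contrasts, IL-4/13 + Inf minus IL-4/13, Inf minus control, and their difference. Benjamini-Hochberg adjustment was over all tested genes. The thresholds, an adjusted p of 0.05 and a log2 fold change of 0.25, are those of the study's pseudobulk comparison. The study's methods name DESeq2 for these libraries, which was run as an alternative (version 1.42.0). A SE is the log2 fold change divided by the square root of F. Floors of 3 counts cover counting error only. Depth was 13446005 to 20775769 counts per library, all conditions included.

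The members and the 31 gene lists were chosen with earlier results of these data known. Named genes were the 10 largest rises and falls with no overlap of the groups and 5 CPM or more in 1 of them, up to 4 called members of each list with the largest change and at least 5 CPM, with further members given by role, the 8 largest called differences each way with 5 CPM or more in any of the 4 groups, the 8 largest lower bounds, and genes called in opposite directions. Medians of lists are also given with genes below detection at their bound where that moved them by over 0.01, except for complement, whose median of 1.30 became 1.09. Shared sequence is the percent of 50-base stretches of a gene's longest transcript also present in another gene's transcripts (GENCODE M21). Upstream sequence is from RefSeq on GRCm38.p6, a build other than that of the counts, and carries no coordinates of the counts. Counts were simulated with a log2 fold change of 1 either way in 200 of 14810 genes and no change in the others, unlike these data. The filter left 14531 of these genes. Of the 200, edgeR recovered 83% for IL-4/13 + Inf against IL-4/13, where it called 9 unchanged genes, and 75% for the difference. Alternatives were DESeq2, other scaling, other filters, the 6 compared libraries alone, a replicate block, each library left out, and other thresholds. The principal components used log2 CPM with a prior count of 2. Some list members are not reported here by name. Single-cell, protein, qRT-PCR, and animal data were not analysed here. Figures and tables used matplotlib 3.10.9, pandas 2.3.3, and numpy 2.4.6 in Python 3.11.15.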

Additional observations from a re-analysis of the deposited data

Results flagged for a closer look

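Of 152 genes named by rule, 39 had a called difference between the response to Inf with IL-4/13 and the response without it, each by edgeR's test of the difference itself. Of these, 16 had a log2 difference above 0, 19 below 0, and 4 had a group below detection and so have no size. Genes were partly named for this difference. Of the 134 genes named for their response with IL-4/13 or for their list, 21 had one. A further 83 genes were named in the text by role or because a count was 5 or fewer, and 16 of them had a called difference, 2 above 0 and 14 below.

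A larger rise with IL-4/13, a weaker fall, or a rise in place of a fall gave log2 differences of 2.11 for *Sprr1a*, 1.51 for *Clec14a*, 1.34 for *Malt1*, 1.32 for *Ntrk3*, 1.30 for *Prickle1*, 1.25 for *Sema3a*, and 1.24 for *Slc8a1*. Differences of 0.93 for *Gstm1*, 0.84 for *Prmt6*, 0.72 for *Osgin2*, 0.69 for *Il17rd*, 0.60 for *Sema7a*, 0.54 for *Trib3*, 0.53 for *Ptgs2*, 0.53 for *Gm7993*, and 0.52 for *Chac1* were smaller. *Trib3* and *Chac1*, targets of ATF4, fell in both responses and by less with IL-4/13.

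A smaller rise, a stronger fall, or a fall in place of a rise gave log2 differences below 0. They were −2.79 for *Serpina3g*, −2.17 for *Serpina3f*, −2.17 for *Il13ra2*, −2.12 for *C3*, −1.91 for *Ccl2*, and −1.74 for *Tnip3*. Differences were −0.87 for *Foxc1*, −0.75 for *Ptgfr*, −0.71 for *Thbs2*, −0.62 for *Il1rap*, −0.59 for *Ccl5*, −0.58 for *Gdnf*, −0.49 for *Cxcl1*, and −0.44 for *Bnip3*, of which 21.9% of 50-base stretches are shared with other genes. Smaller differences were −0.37 for *Fas*, −0.37 for *Mt1*, −0.29 for *Col6a1*, −0.28 for *Sod2*, and −0.26 for *Dcn*. For genes with a group below detection, the adjusted p of the difference (edgeR) was 0.00839 for *Blnk*, 0.00141 for *Serpina3i*, 0.0407 for *Lbp*, and 2e-05 for *Serpina3h*.

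Among genes named outside the rule, the log2 differences above 0 were 0.95 for *Prelp* and 0.51 for *Dlk1*. Those below 0 were −1.14 for *Fabp4*, −0.72 for *Cxcl12*, −0.70 for *Mmp9*, −0.66 for *Cp*, −0.63 for *Tnfaip3*, and −0.49 for *Map3k14*. Smaller ones were −0.45 for *Nfkbia*, −0.42 for *Postn*, −0.40 for *Relb*, −0.36 for *Mmp2*, −0.33 for *Il4ra*, −0.32 for *Nfkb1*, −0.31 for *Gclm*, and −0.28 for *Il13ra1*.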

How the results depend on the processing

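Called rises and falls with IL-4/13 numbered 1851 and 1569 with DESeq2, of which 1846 and 1548 were the same genes, 1778 and 1936 with library size alone, and 1959 and 1642 with DESeq2's size factors. A log2 fold change threshold of 0 gave 2471 falls (and 1989 falls shared with the response without IL-4/13), a threshold of 0.5 gave 1201 and 733, and one of 1 gave 630 and 306. The genes called without IL-4/13, a count added after the data were seen, became 1514 and 863 at 0.5 and 786 and 309 at 1, and those shared 979 and 526 at 0.5 and 497 and 214 at 1. Called differences became 67 and 96 at 0.5, 17 and 23 at 1, and 129 and 148 at an adjusted p of 0.01, by construction. Leaving out 1 library gave 1773 to 1904 rises and 1446 to 1572 falls with IL-4/13, 2295 to 2478 and 2137 to 2324 without it, 1479 to 1555 and 1132 to 1217 shared, and 159 to 331 and 183 to 322 differences, the highest without Inf replicate 3 and the lowest without IL-4/13 + Inf replicate 1; the cause was not tested. Same-numbered libraries of the compared groups did not deviate together (r of −0.024 to −0.012), so the replicate block pairs nothing known. It gave 1923 and 1593 calls with IL-4/13 and 197 and 213 differences. Over 1738 refits of named genes, 1731 kept call and direction and 0 reversed, the calls lost being of *Cemip* and *Tm7sf2*. Of 696 refits of called differences, 35 lost the call, in *Sema7a*, *Tnip3*, *Col6a1*, *Dcn*, *Fas*, *Sod2*, *Blnk*, *Sprr1a*, *Ntrk3*, *Lbp*, and *Osgin2*. For genes named outside the rule, 24 of 288 refits lost the call, in *Gclm*, *Il13ra1*, *Il4ra*, and *Relb*. Of 806 refits of 62 list counts, 11 moved by over 1.5 times. Depth limits differences of genes below detection.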

Other observations

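*Icam1*, a classical NF-κB target that mediates leukocyte adhesion, had between 0 and 3 counts in each of the 12 libraries, those with TNF-α and IL-1β included, whereas *Vcam1* was at 221 CPM or more in each of the 6 compared libraries. The annotation and strand setting of the counts are not given, and shared sequence was not computed for *Icam1*. Whether its reads were lost in counting was not tested.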
